A study of Mus musculus with 12 samples.

Results

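The comparison is Myb knockout against control in germinal centre (GC) B cells taken on day 12 after immunisation. It rests on 4 of the 12 libraries of the series, the 2 control and 2 knockout libraries labelled as c-Myb GC B cells. All 13131 genes that passed the count filter were tested, of 27179 gene IDs. The mice were C57BL/6 and were immunised with the hapten-carrier antigen NP-KLH in alum, and GC B cells were sorted. Control mice carried both floxed Myb alleles without cre (Myb fl/fl). Knockout mice carried the same alleles with 1 CD23-cre allele (Myb fl/fl CD23-cre T/+), so the cre and the loss of Myb cannot be told apart. CD23, encoded by Fcer2a, is a surface receptor of mature B cells, so this cre acts before the cells enter a germinal centre. Each library was polyA RNA from pooled mice. Control pool 1 held 3 mice (1 male, 2 females), control pool 2 held 2 females, knockout pool 1 held 2 females and knockout pool 2 held 3 females. Both first pools came from 1 experiment date and both second pools from another, and they are called pair 1 and pair 2.

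c-Myb is a DNA-binding transcription factor that blood progenitors and developing B and T cells need. In a germinal centre, B cells move between a dark zone, where they divide and mutate their antibody genes, and a light zone, where they are selected by antigen and helper T cells. Cells that leave become plasma cells, through Blimp-1 (Prdm1) and IRF4, or memory cells. T-bet (Tbx21), which interferon gamma induces in B cells, directs switching to IgG2c in this strain and expression of the chemokine receptor CXCR3.

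The 4 libraries held 8285934 to 9963612 counts. The sorted cells carried transcripts of GC B cells in every pool. Bcl6, the master regulator of this cell state, was at 139 and 127 CPM (the library-size scaled count, with TMM scaling) in control pools 1 and 2, and at 105 and 108 in knockout pools 1 and 2. Rgs13, a GC regulator of G protein signalling, was at 179 and 323 in control and 147 and 299 in knockout pools. Myb transcripts were at 14 and 11.5 CPM in control and at 13.0 and 11.6 in knockout pools (log2 fold change -0.05, SE 0.24, edgeR adjusted p = 1). The floxed exons are not named by the labels, and counts over the whole gene check nothing about the deletion. Knockout pool 1 went against its label in sex-linked transcripts. It is labelled as 2 females, yet had 67.2 unscaled CPM of the Y-linked gene Ddx3y, against 17.7 in control pool 1, which held 1 male, and 0.483 and 0.323 in the second pools. Whether the label or the mice in that pool differ from the record was not tested, and the main results are also given without the library labelled knockout pool 1. A further difference between the groups lay in gene IDs that have no symbol in the annotation. They took 5.54% and 4.66% of counts in control pools and 1.05% and 0.933% in knockout pools, most of it from the ID 100861531.

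Without the experiment date in the model (the unpaired fit, an edgeR quasi-likelihood test with 6 residual degrees of freedom), 31 genes were higher in knockout cells and 3 were lower at an adjusted p under 0.05. That is 0.236% and 0.0228% of the genes tested. Of the 31, 7 were immunoglobulin genes and 24 were other named genes. The lower genes were Cdc14b and 2 IDs without a symbol. With the date as a block (the paired fit, with 3 residual degrees of freedom), 266 genes were higher and 52 lower, or 2.03% and 0.396% of those tested and 2.42% together. Among the 266 were 42 immunoglobulin genes, the median change was 1.42 on the log2 scale and 200 exceeded a 2-fold change. Among the 52, the median was -0.86 and 19 exceeded it. The change thus ran mostly upward, and the decreases were smaller. All 318 of these genes moved the same way in both pairs, which a paired fit favours when it calls genes. Of all 13131 genes tested, 4096 were higher and 4206 lower in both pairs. The paired fit kept 31 of the 34 unpaired calls, and those it lost were Ighv5-4, Igkv6-17 and Fgl2. Each group had 2 pools, and the p-values rest on a spread estimated from all 6 groups together, the plasmablast and Moz pools included. With the 2 compared groups fitted alone, 0 genes were called. With 2 pools against 2, the smallest exact permutation p of a single value is 0.333.

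**Figure D1:**
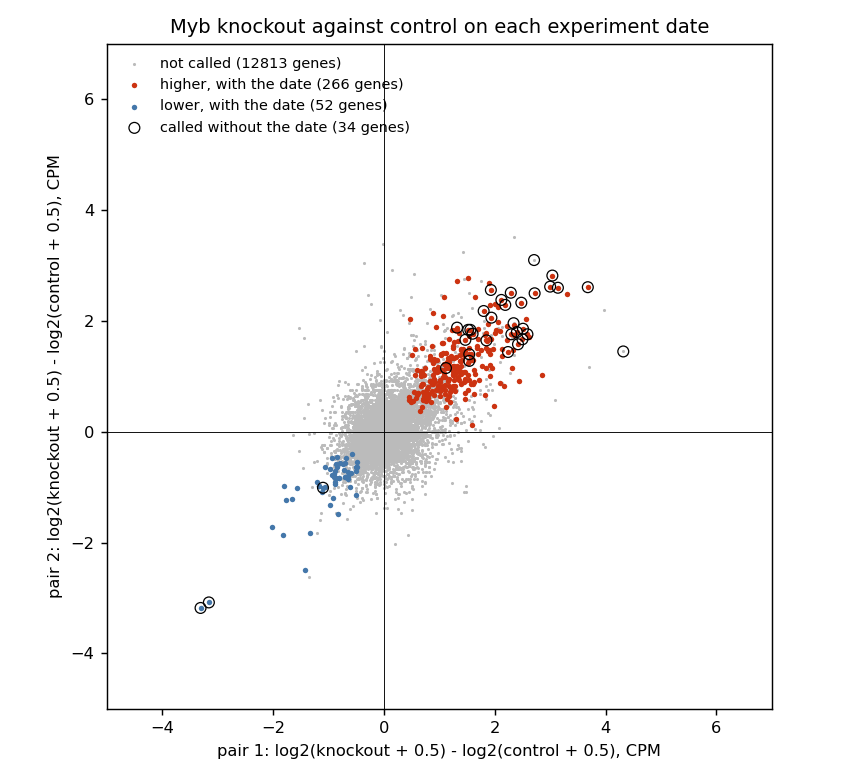
Each point is a gene, with the log2 difference between knockout and control (CPM plus 0.5) of pair 1 on the x axis and of pair 2 on the y axis. Red and blue points were higher (266) and lower (52) with the date in the model, and circles mark the 34 genes called without it. All coloured points lie in the upper right or lower left quadrant, which the paired fit favours, and the red ones are more numerous and farther from the origin.

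Leaving out knockout pool 1 reduced the unpaired calls to 3, which were Chst1, Cd9 and Ighv1-15. In the paired fit the same omission left 44 higher and 4 lower genes, of which 40 were among the 318 above. In it control pool 1, left without its partner, adds nothing to the contrast of the groups, which then rests on pair 2, with the spread taken from the plasmablast and Moz libraries. All 34 unpaired calls kept their direction in both of these fits. Their control and knockout pools did not overlap, so the direction could not change. The paired calls had moved the same way in both pairs, so their direction in a fit that rests on pair 2 was fixed too. Of the 60 named genes called in the paired fit, all 60 kept their direction without knockout pool 1 and 17 still passed.

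The T-bet genes were among the clearest changes. Cxcr3 (gene ID 12766, chrX 101731535 to 101734147 in mm10), the receptor for interferon-induced chemokines, was at 2.58 and 3.95 CPM in control and at 16.7 and 21.8 CPM in knockout pools. Both knockout pools were above both controls, as was so for 13.8% of all genes tested, with 11.8% lower in both. Cxcr3 rose in the unpaired fit (log2 2.56, SE 0.35, edgeR adjusted p = 0.0169) and in the paired fit (log2 2.57, SE 0.28, edgeR adjusted p = 0.000925). Tbx21 (ID 57765, chr11 97098007 to 97115331) was at 3.91 and 3.22 CPM in control and 20.1 and 13.5 CPM in knockout pools. It rose in the paired fit (log2 2.22, SE 0.20, edgeR adjusted p = 0.000196) and missed the limit in the unpaired one (edgeR adjusted p = 0.088). Without knockout pool 1 the paired values were 2.06 for Tbx21 (edgeR adjusted p = 0.0238) and 2.47 for Cxcr3 (edgeR adjusted p = 0.029).

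Of 18 tested genes of the T-bet and type 1 programme, 13 had a positive log2 change and the median was 0.51, where all genes had a median of 0.00. Of all genes tested, 49.9% had a positive change, and 2.03% rose and 0.396% fell in the paired fit. These shares are the background for each list below. In the unpaired fit 1 rose, and in the paired fit 7 rose and 0 fell. Besides Tbx21 and Cxcr3 they included Itgax, Fcrl5, Lag3 and Il2rb. Fcrl5, an Fc receptor-like inhibitory receptor, went from 3.21 and 2.82 to 13.5 and 6.16 CPM (paired log2 1.66, SE 0.26, edgeR adjusted p = 0.00696). Itgax, the integrin CD11c that marks T-bet-positive B cells, had overlapping pools: 1.96 and 0.403 CPM in control against 6.15 and 1.85 CPM in knockout (paired log2 1.79, edgeR adjusted p = 0.0358). The receptors for interferon gamma were not called. Ifngr1 was at 51.5 and 57.2 CPM in control and 40.2 and 46.6 CPM in knockout pools (edgeR adjusted p = 0.222 in the paired fit), and Ifngr2 was at 20.2 and 18.3 against 20.2 and 14.7 CPM. Tbx21 and Cxcr3 alone of the 18 rose in the paired fit without knockout pool 1 and the median was 0.70, with Fcrl5 and Itgax at an edgeR adjusted p of 0.484 and 0.591.

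Interferon response genes were higher in knockout cells as a broad set with moderate changes. Of 42 tested, 39 had a positive log2 change and the median was 0.81. Irgm1 and Ifi211 rose in the unpaired fit, and 13 rose and 0 fell in the paired fit. Irgm1 (ID 15944, chr11 48865245 to 48871420), an interferon-induced GTPase of defence inside cells, was at 8.87 and 8.22 CPM in control and 19.9 and 18.9 CPM in knockout pools (unpaired log2 1.18, SE 0.18, edgeR adjusted p = 0.0266). Irf1 (ID 16362, chr11 53770014 to 53778374), a transcription factor induced by interferon gamma, was at 30.2 and 20.6 CPM in control and 83.8 and 56.9 CPM in knockout pools. It rose in the paired fit (log2 1.47, SE 0.13, edgeR adjusted p = 0.000163) and missed the limit in the unpaired one (edgeR adjusted p = 0.103). The other members that rose in the paired fit were Zbp1, Ifih1, Gbp2, Gbp6, Gbp7, Ifi47, Igtp, Iigp1, Tap1 and Bst2.

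Members known for the response to type I interferon were divided in whether they passed the limit. Ifih1, an RNA sensor, and Bst2 (tetherin) rose in the paired fit (edgeR adjusted p = 0.0236 and 0.0211). Rtp4, Oasl2, Ifit3 and Usp18 had paired log2 changes of 1.40, 1.29, 1.21 and 1.09 and did not pass (edgeR adjusted p = 0.103, 0.23, 0.197 and 0.197). Isg15, a ubiquitin-like protein of the type I response, was at 3.00 and 6.05 CPM in control and 5.57 and 7.87 CPM in knockout pools, which overlap (paired edgeR adjusted p = 0.309). Ifit1 was at 0.489 and 0.645 CPM in control and 0.986 and 0.89 CPM in knockout pools (paired log2 0.74, edgeR adjusted p = 0.695). Mx2 was at 0.21 and 0 against 0.348 and 0.205 CPM (paired log2 1.31, edgeR adjusted p = 0.771). Both had few counts. Irf7, the amplifier of type I interferon, was at 21.6 and 19.6 CPM in control and 26.5 and 33.0 CPM in knockout pools (paired log2 0.52, edgeR adjusted p = 0.171). Transcripts of interferon gamma itself, Ifng, did not pass the count filter. Without knockout pool 1, 36 of the 42 were positive with a median of 0.71 in the unpaired fit, and Irf1 alone rose in the paired fit (log2 1.47, edgeR adjusted p = 0.0125).

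**Figure D2:**
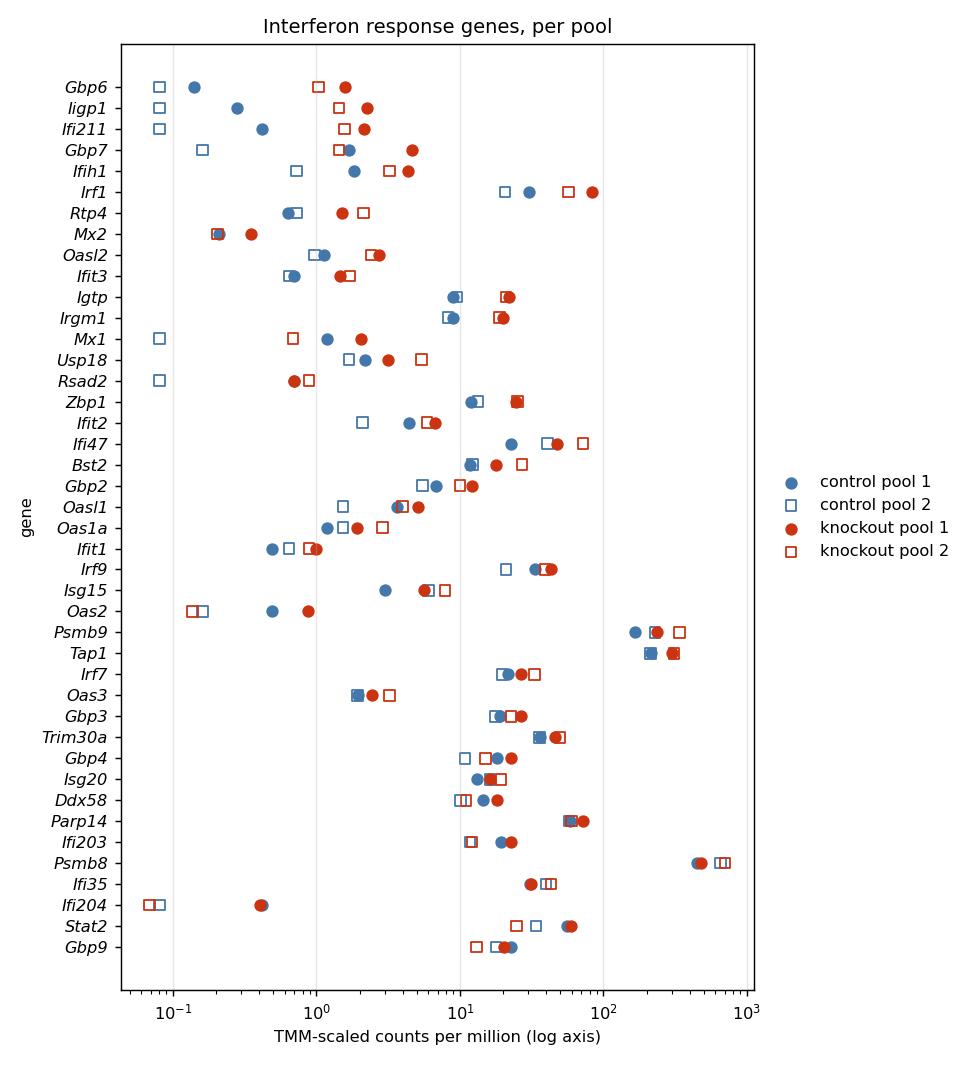
TMM-scaled CPM (log axis) of the 42 tested interferon response genes in the 4 pools, ordered by log2 change in the paired fit. Blue marks are control and red marks knockout pools, circles pair 1 and squares pair 2, and Mx2 in control pool 2, at 0, cannot be drawn. Red marks lie to the right of the blue marks of the same shape for most genes, with wide gaps for Irf1, Igtp, Irgm1 and Zbp1 and none for Psmb8 or Ifi35.

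Promoters of 4 of these genes are shown because they hold a motif of the factors discussed here. They are RefSeq sequences of GRCm38.p6, the build that mm10 names, 250 bases before to 50 after an annotated start, on the gene's strand. Where a gene had more than 1 such promoter, the first that held the motif was taken. The start used for Chst1 lies inside the gene coordinates given for it below, and those of Cxcr3, Irf1 and Irgm1 are the gene's outer start. Capitals mark each match on either strand to the MYB core TAACNG, to the interferon-stimulated response element (ISRE, here GAAA, any 2 bases, then GAAA) or to the gamma-activated site TTCNNNGAA (GAS). Cxcr3 (chrX:101734098-101734397, minus strand) and Chst1 (chr2:92600867-92601166, plus strand) hold a MYB core. Irf1 (chr11:53769764-53770063, plus strand) holds a GAS. Irgm1 (chr11:48871371-48871670, minus strand) holds a MYB core on the opposite strand and a pair of overlapping ISRE matches.
Cxcr3: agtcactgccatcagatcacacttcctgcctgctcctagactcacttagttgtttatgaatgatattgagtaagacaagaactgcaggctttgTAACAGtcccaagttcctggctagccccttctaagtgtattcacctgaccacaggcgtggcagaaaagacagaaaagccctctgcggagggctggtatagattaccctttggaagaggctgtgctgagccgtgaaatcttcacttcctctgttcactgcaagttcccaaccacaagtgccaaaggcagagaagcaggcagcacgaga
Chst1: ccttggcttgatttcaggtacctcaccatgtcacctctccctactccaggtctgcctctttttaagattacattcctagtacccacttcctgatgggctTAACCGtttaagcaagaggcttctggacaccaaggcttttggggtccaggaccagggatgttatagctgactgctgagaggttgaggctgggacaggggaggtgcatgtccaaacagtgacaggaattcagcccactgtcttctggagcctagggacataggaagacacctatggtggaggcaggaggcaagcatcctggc
Irf1: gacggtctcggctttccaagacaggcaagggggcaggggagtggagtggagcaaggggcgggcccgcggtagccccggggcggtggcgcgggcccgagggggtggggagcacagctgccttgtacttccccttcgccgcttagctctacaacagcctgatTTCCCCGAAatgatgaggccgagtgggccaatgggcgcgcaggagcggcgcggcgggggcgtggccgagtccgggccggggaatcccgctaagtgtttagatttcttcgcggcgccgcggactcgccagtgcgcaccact
Irgm1: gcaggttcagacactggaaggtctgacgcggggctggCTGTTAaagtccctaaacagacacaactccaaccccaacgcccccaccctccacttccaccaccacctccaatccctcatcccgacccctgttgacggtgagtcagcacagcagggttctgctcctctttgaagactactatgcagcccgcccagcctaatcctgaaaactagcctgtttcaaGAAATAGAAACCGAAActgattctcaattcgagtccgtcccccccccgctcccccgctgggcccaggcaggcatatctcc

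The motifs are common, so a match alone describes the letters and no site. A gene was counted as holding a motif if any of its promoters did. A promoter was found for 9824 of the 13131 genes tested. Of those, 22.6% held a MYB core, 3.78% an ISRE, 8.2% a GAS and 1.04% the T-box motif AGGTGTGA. Of the 224 non-immunoglobulin genes that rose in the paired fit, 164 had a promoter, and the shares were 31.7%, 9.15%, 11.6% and 1.83%. Of the 50 that fell, 37 had one, and 29.7% of them held a MYB core. Interferon list genes, matched for 30 of 42, held a MYB core in 50%, an ISRE in 60%, a GAS in 30% and the T-box motif in 0%.

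MHC class I genes were higher along with the interferon genes. This family was drawn up after values were seen. Of 21 tested heavy chain and accessory genes, 20 had a positive change with a median of 0.48, and 9 rose in the paired fit. H2-Q7 (ID 15018, chr17 35439140 to 35443773), a nonclassical class I chain, was at 12.5 and 12.1 CPM in control and 46.5 and 39.0 CPM in knockout pools (unpaired log2 1.80, SE 0.25, edgeR adjusted p = 0.0169). Its neighbour H2-Q6 went from 22.8 and 16.6 to 55.1 and 38.6 CPM, and since the sequences of these genes are nearly the same, reads may be split between them. B2m, the light chain of class I molecules, was at 548 and 854 CPM in control and 1053 and 1447 CPM in knockout pools (paired log2 0.85, SE 0.15, edgeR adjusted p = 0.0148). Nlrc5, the transactivator of class I genes, was at 24.3 and 12.2 CPM in control and 62.0 and 27.0 CPM in knockout pools (paired log2 1.26, edgeR adjusted p = 0.00215). All 21 were positive in the paired fit without knockout pool 1, with a median of 0.57, and H2-Q7 alone rose, with B2m and Nlrc5 at an edgeR adjusted p of 0.623 and 0.134. Class II genes were not among the calls: 1 of 13 tested had a positive change, the median was -0.21, and 0 were called in either fit.

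Plasma cell genes were raised in part. Prdm1 (ID 12142, chr10 44437174 to 44528558) was at 3.21 and 4.03 CPM in control and 21.8 and 14.9 CPM in knockout pools (unpaired log2 2.34, SE 0.35, edgeR adjusted p = 0.0248). Bhlha15 (ID 17341, chr5 144190286 to 144194441), which encodes the secretory cell factor Mist1, was at 1.61 and 1.69 CPM in control and 5.33 and 6.44 CPM in knockout pools (unpaired log2 1.83, SE 0.27, edgeR adjusted p = 0.0248). The tetraspanin gene Cd9 (ID 12527, chr6 125460266 to 125494760), a plasma cell surface marker, went from 3.91 and 2.90 to 16.3 and 19.6 CPM (unpaired log2 2.39, SE 0.25, edgeR adjusted p = 0.00556). For all 3 genes both knockout pools were above both controls, as for 13.8% of all genes tested. In the paired fit without knockout pool 1, Cd9 rose by 2.75 and Bhlha15 by 1.92 (edgeR adjusted p = 0.0026 and 0.0162), and Prdm1 was at 1.88 and did not pass (edgeR adjusted p = 0.0816).

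Of 24 tested plasma cell genes, 20 had a positive change, against 49.9% of all genes tested, and the median was 0.44. In the unpaired fit 3 rose, and in the paired fit 9 rose and 0 fell, where 2.03% of all genes rose. Irf4 was at 37.4 and 34.4 CPM in control and 62.6 and 51.7 CPM in knockout pools (paired log2 0.67, edgeR adjusted p = 0.0371). Creb3l2, a membrane-bound factor of the secretory response, went from 1.68 and 1.37 to 6.55 and 6.30 CPM (paired log2 2.07, SE 0.25, edgeR adjusted p = 0.00126). Sdc1 (CD138), Ly6c2, Fkbp11 and Txndc5 rose too in the paired fit. Xbp1, the factor that expands the secretory apparatus, was at 111 and 168 CPM in control and 171 and 233 CPM in knockout pools. Both knockout pools were above both controls, as for 13.8% of all genes tested, and Xbp1 did not pass (paired log2 0.55, edgeR adjusted p = 0.0887). Jchain and Mzb1, which serve antibody assembly, were not called. Jchain was at 770 and 1266 CPM in control and 1051 and 1537 CPM in knockout pools, and Mzb1 at 311 and 539 against 334 and 564 CPM, with each control pool 2 above knockout pool 1. In bulk samples, a different share of cells of a type and a different amount of RNA per cell cannot be told apart. Without knockout pool 1, 4 of the 24 rose in the paired fit, and Irf4 did not (edgeR adjusted p = 0.744).

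Endoplasmic reticulum chaperones and folding enzymes lay on the same side. Of 22 tested, 19 had a positive change with a median of 0.38, and 0 rose in the unpaired and 4 in the paired fit. Hsp90b1, a chaperone of the reticulum, was at 243 and 203 CPM in control and 552 and 503 CPM in knockout pools (paired log2 1.25, SE 0.19, edgeR adjusted p = 0.00463). Creld2, Pdia4 and Manf were the others. Hspa5, the main chaperone of the reticulum, was at 368 and 376 CPM in control and 462 and 507 CPM in knockout pools and did not pass (paired log2 0.38, edgeR adjusted p = 0.392). Of 30 secretory pathway genes, 27 were positive with a median of 0.21, and Sec24d, Lman1 and Cpd rose in the paired fit. Most of the calls in those 2 lists were lost in the paired fit without knockout pool 1. Their medians there were 0.39 for the folding and 0.19 for the secretory list, with 18 of 22 and 26 of 30 genes positive. In unpaired fits without 1 pool, the secretory median ranged from -0.02 without knockout pool 2 to 0.47 without control pool 2.

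**Figure D3:**
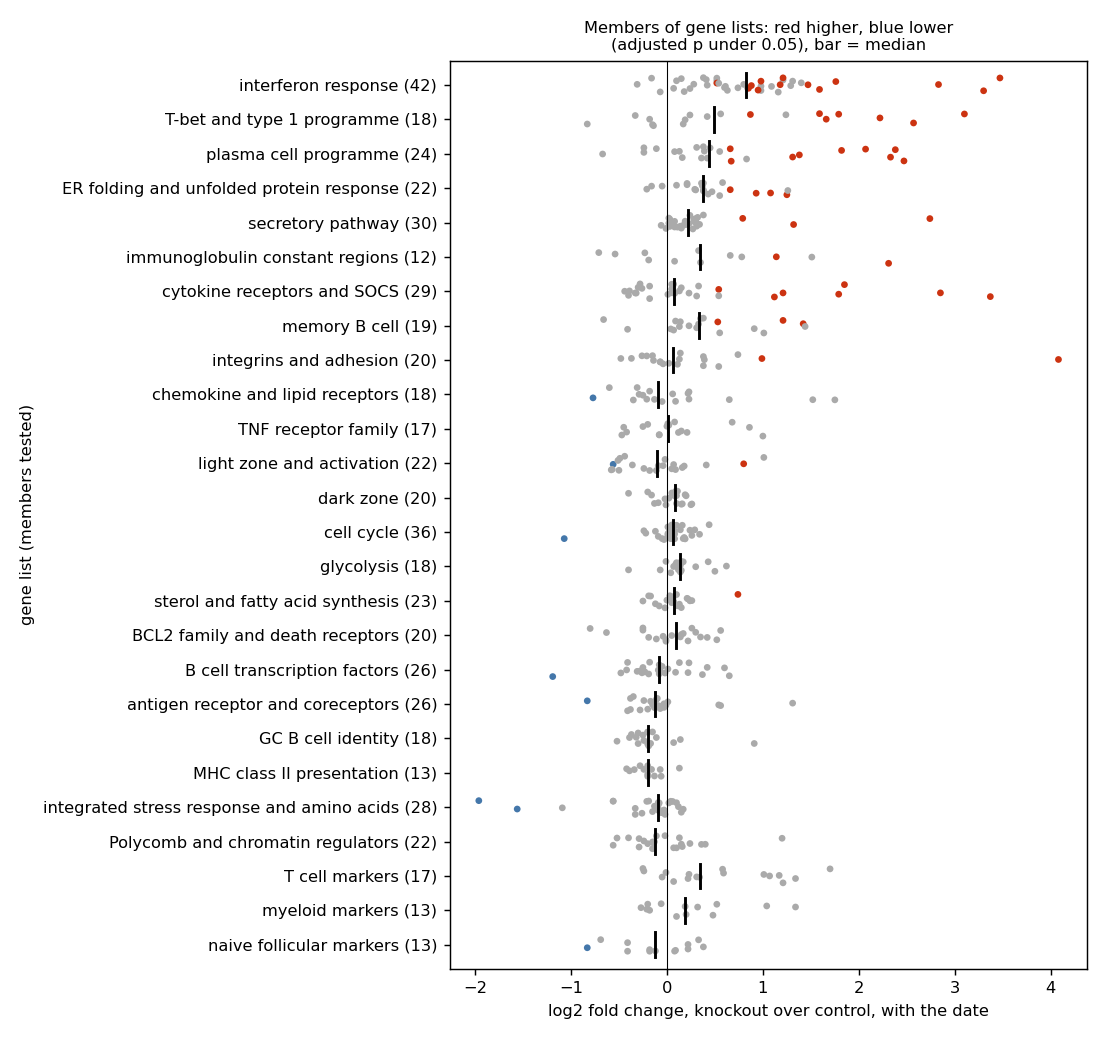
Each point is a tested gene, with its log2 change (knockout over control) in the paired fit on the x axis and its list on the y axis, where the number of tested members is in brackets. Red points were higher and blue points lower at an adjusted p under 0.05, and black bars are list medians. The interferon, T-bet, plasma cell and folding lists have their medians right of 0 and several red points, and the GC identity and MHC class II lists have theirs left of 0 and no coloured points.

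Cytokine receptors and their feedback inhibitors changed in single members. Of 29 tested, 19 were positive with a median of 0.08, and 7 rose and 0 fell in the paired fit. Il13ra1 (ID 16164), a receptor chain for interleukins 13 and 4, had 6 counts in both control pools together and 76 in both knockout pools. Scaled for depth the ratio was 10.6 (95% exact interval 4.67 to 29.9, counting error only), and Il13ra1 rose in the unpaired fit (edgeR adjusted p = 0.022). Csf2rb, the shared signalling chain of the receptors for interleukins 3 and 5 and for GM-CSF, was at 5.31 and 2.98 CPM in control and 17.2 and 11.4 CPM in knockout pools (unpaired log2 1.77, SE 0.31, edgeR adjusted p = 0.0431). A near-identical paralog of Csf2rb in mouse may share its reads. The others were Il9r, Il6st, Ifnar2 and the inhibitors Socs2 and Socs3. Il9r, which marks memory B cells and their precursors, was higher in pair 1 in both groups, with 18.8 and 10.4 CPM in control and 48.4 and 21.2 CPM in knockout pools (paired log2 1.21, SE 0.16, edgeR adjusted p = 0.00197). The receptors for interleukins 4 and 21, which act in the germinal centre, were not called: Il4ra was at 179 and 175 against 140 and 131 CPM and Il21r at 193 and 203 against 202 and 207 CPM. The cytokine receptor list had a median of -0.20 in the unpaired fit without knockout pool 1, and Il13ra1 and Csf2rb rose in the paired fit without it, where Il9r did not pass (edgeR adjusted p = 0.205).

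Genes of memory B cells showed a similar mixture. Of 19 tested, 17 were positive with a median of 0.42, and Il9r, Tlr7 and Tle3 rose in the paired fit. Without knockout pool 1, 9 of 19 were positive in the unpaired fit and 0 rose in either fit, with Tlr7 at a paired edgeR adjusted p of 0.263. Tlr7, the endosomal receptor for single-stranded RNA, was at 6.22 and 2.74 CPM in control and 16.1 and 7.74 CPM in knockout pools (paired log2 1.42, SE 0.25, edgeR adjusted p = 0.0125). Cd38, high on memory and naive cells and low on mouse GC B cells, was at 17.9 and 14.8 CPM in control and 43.4 and 20.8 CPM in knockout pools and did not pass (paired edgeR adjusted p = 0.121). Ccr6 was at 11.5 and 9.27 CPM in control and at 22.1 and 5.62 CPM in knockout pools, so its 2 pairs moved in opposite directions.

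Outside these lists, the genes called in the unpaired fit included surface, enzyme and cytoskeletal genes. Chst1 (ID 76969, chr2 92599632 to 92615252), a Golgi sulfotransferase that modifies keratan sulfate, had the smallest adjusted p among the named genes. It was at 8.24 and 9.35 CPM in control and 76.5 and 59.1 CPM in knockout pools (unpaired log2 2.95, SE 0.28, edgeR adjusted p = 0.00419), and passed without knockout pool 1 as well (edgeR adjusted p = 0.013). Adgrl2, an adhesion G protein-coupled receptor, went from 3.07 and 2.50 to 28.0 and 17.9 CPM (unpaired log2 3.04, SE 0.37, edgeR adjusted p = 0.0141). Prg2, the eosinophil granule major basic protein, went from 1.68 and 2.02 to 13.9 and 13.8 CPM (unpaired log2 2.90, SE 0.43, edgeR adjusted p = 0.0248). Serpina3g, a protease inhibitor induced by interferon gamma, went from 8.80 and 8.30 to 45.5 and 29.4 CPM (unpaired log2 2.13, SE 0.27, edgeR adjusted p = 0.0151), and its paralogs may share reads. Tns3, a focal adhesion protein, went from 2.31 and 1.85 to 13.2 and 12.9 CPM, and Plin2, a coat protein of lipid droplets, from 3.00 and 3.55 to 9.68 and 9.31 CPM. The pools of a group lay close together for Prg2, Tns3 and Plin2, and Adgrl2 and Serpina3g were higher in knockout pool 1 than in knockout pool 2.

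Several of the steepest changes began from very few counts. Igsf3, an immunoglobulin superfamily membrane protein, had 2 counts in the control pools together and 62 in the knockout pools (ratio 26.1, 95% exact interval 6.91 to 220). Procr, the endothelial protein C receptor, had 2 and 35 (ratio 14.7, interval 3.78 to 126). Faxc had 3 and 47 (ratio 13.2, interval 4.24 to 66.1). Cadm1 (ID 54725), an adhesion molecule, had 10 and 203 (ratio 17.1, interval 9.09 to 36.1). For these 4 genes the direction was called in the unpaired fit, and the interval shows how loosely the counts fix the size. Trp73, Tubb6, Shtn1 and Cpd, which encode a p53 relative, a tubulin, an actin regulator and a carboxypeptidase, rose as well. Fgl2 was the named gene whose call was lost with the date (edgeR adjusted p = 0.218).

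**Figure D4:**
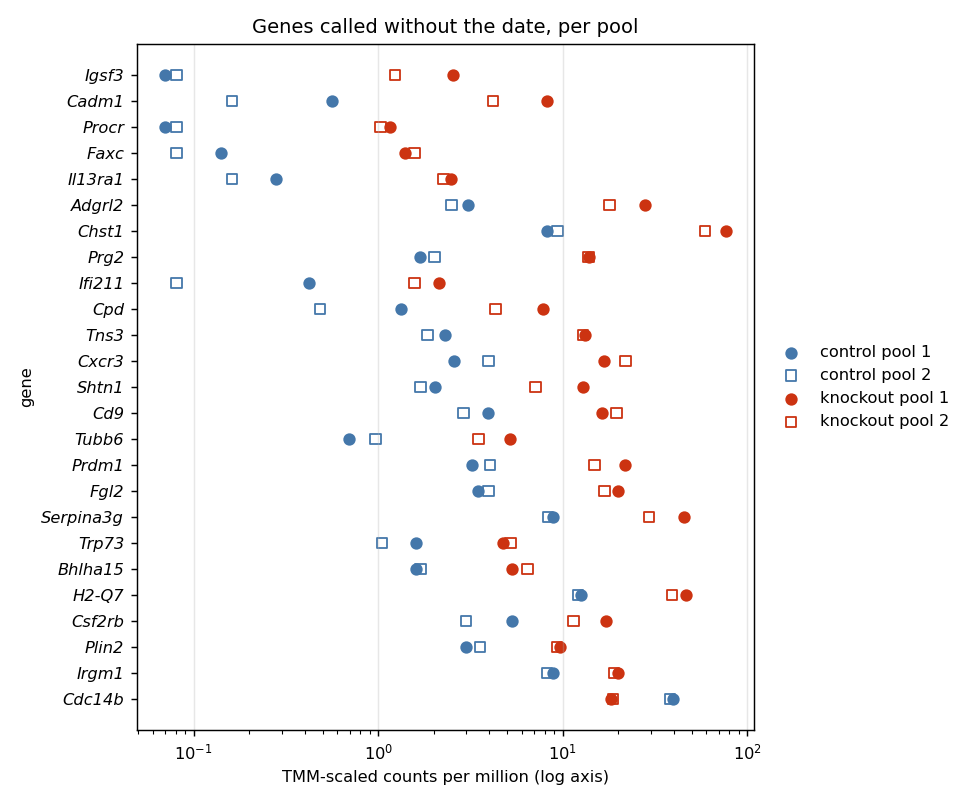
TMM-scaled CPM (log axis) in each pool for the 25 named genes called in the unpaired fit, ordered by log2 change. Blue marks are control and red marks knockout pools, circles pair 1 and squares pair 2. For each gene the 2 red marks lie on 1 side of both blue marks, and for Igsf3, Procr and Faxc the control marks stand for 1 or 2 counts.

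Decreases were fewer and included regulators of the cell cycle, RNA and signalling. Cdc14b (ID 218294, chr13 64192545 to 64274988), a phosphatase of the cell cycle, was at 39.6 and 38.1 CPM in control and 18.3 and 18.7 CPM in knockout pools (unpaired log2 -1.07, SE 0.19, edgeR adjusted p = 0.0486). It was the named gene that fell in the unpaired fit. In the paired fit Igf2bp3, an RNA-binding protein, was at 24.7 and 32.2 CPM in control and 10.7 and 16.2 CPM in knockout pools (log2 -1.10, SE 0.17, edgeR adjusted p = 0.00636). Nfil3, a leucine zipper repressor, was at 16.1 and 14.8 against 7.94 and 5.62 CPM (log2 -1.19, SE 0.23, edgeR adjusted p = 0.0215). S1pr3, a sphingosine 1-phosphate receptor, was at 31.0 and 45.1 against 19.0 and 25.5 CPM (log2 -0.77, SE 0.13, edgeR adjusted p = 0.0117). Cd86, a costimulator of light zone cells, was at 88.0 and 104 against 62.6 and 67.2 CPM (log2 -0.56, SE 0.12, edgeR adjusted p = 0.0309). Control and knockout pools did not overlap for these genes, and 11.8% of all genes tested were lower in this way. Fcer2a, the gene whose promoter drives the cre, was at 210 and 215 CPM in control and 147 and 97.6 CPM in knockout pools (log2 -0.83, SE 0.16, edgeR adjusted p = 0.0251). None of these 6 genes passed in the paired fit without knockout pool 1, where Cdc14b had a log2 change of -1.02 and an edgeR adjusted p of 0.0925.

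Some of the steepest decreases were in IDs that have no symbol, in Rn7sk and in Lars2. The ID 100861531 took 4.51% and 3.71% of counts in control pools and 0.538% and 0.461% in knockout pools, and the ID 19791 took 0.440% and 0.387% against 0.0474% and 0.0449%. Rn7sk, a nuclear RNA that RNA polymerase III makes without a polyA tail, was at 7.61 and 4.76 CPM in control and 1.51 and 1.10 CPM in knockout pools (paired log2 -2.24, SE 0.32, edgeR adjusted p = 0.00358). Lars2, which encodes the mitochondrial leucyl-tRNA synthetase, was at 2385 and 2653 CPM in control and 888 and 472 CPM in knockout pools (paired log2 -1.96, SE 0.32, edgeR adjusted p = 0.0246). The summed level of the integrated stress response and amino acid list, to which Lars2 belongs, was at 6588 and 6957 unscaled CPM in control and 4340 and 3761 in knockout pools. Without Lars2 it was at 2719 and 2985 in control and 2802 and 3017 in knockout pools. Chac1, a glutathione-degrading enzyme of that list, fell too in the paired fit. The share of mitochondrial transcripts was alike, at 5.54% and 5.63% in control and 5.43% and 4.84% in knockout pools. What these IDs have in common with the decreases was not tested. The Moz libraries gave the ID 100861531 0.392% to 0.448% of counts, near the Myb knockout level. Lars2 too was nearer the Myb knockout level there, at 377 and 422 CPM in Moz control and 459 and 546 CPM in Moz knockout pools. In plasmablasts Lars2 was at 2650 and 1030 CPM in control and 2830 and 2400 CPM in knockout pools. Leaving out all IDs without a symbol before scaling gave 31 higher genes and 1 lower gene in the unpaired fit, and 263 and 48 in the paired fit.

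Genes that define GC B cells were slightly lower or level. Of 18 tested, 3 had a positive change, the median was -0.21 and 0 were called in either fit. The 3 were Mef2b, Basp1 and Cd38, of which Cd38 is low on mouse GC B cells. Bcl6, with the levels given above, did not pass (paired log2 -0.32, SE 0.16, edgeR adjusted p = 0.475). Bach2, which restrains Prdm1, was at 223 and 222 against 177 and 182 CPM (paired log2 -0.31, edgeR adjusted p = 0.495). Pax5, which holds B cell identity, was at 276 and 344 against 217 and 245 CPM (paired log2 -0.42, edgeR adjusted p = 0.36). For each of these 3 genes both knockout pools were below both control pools, as was so for 11.8% of all genes tested. None of the 3 passed in the unpaired fit (edgeR adjusted p = 1 for each). Of 26 tested B cell transcription factors, 0 rose, and Nfil3 fell in the paired fit. Of 26 antigen receptor and coreceptor genes, 3 were positive with a median of -0.11, and Fcer2a fell in the paired fit.

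Zone and division genes stayed near the control level. Of 20 dark zone genes, 13 were positive and 0 were called in either fit. Cxcr4, the receptor that holds cells in the dark zone, was at 147 and 195 CPM in control and 137 and 195 CPM in knockout pools. The knockout pools matched the control pool of their own date more closely than they matched each other. Of 22 light zone genes, 8 were positive, Ccnd2 rose and Cd86 fell in the paired fit. Of 36 cell cycle genes, 29 were positive with a median of 0.07 and Cdc14b alone was called, and the median was -0.11 without knockout pool 2. Glycolysis genes (18 tested, median 0.15) and Polycomb and chromatin regulators (22 tested) had 0 calls in either fit. Scd2, a fatty acid desaturase, was the member of 23 sterol and fatty acid genes that rose in the paired fit, from 83.2 and 98.6 to 141 and 161 CPM, and it did not pass without knockout pool 1 (edgeR adjusted p = 0.482). Ccnd2 did not pass without it either (edgeR adjusted p = 0.898).

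Published c-Myb targets from other blood cells were not called. Of 16 listed, 12 were tested and 0 passed in either fit. Myc was at 44.8 and 38.1 CPM in control and 44.3 and 42.6 CPM in knockout pools (paired log2 0.07, SE 0.17, edgeR adjusted p = 0.958). Bcl2 followed the date, at 9.08 and 3.71 CPM in control and 13.8 and 3.42 CPM in knockout pools (paired edgeR adjusted p = 0.555). Kit, a growth factor receptor of progenitors, had 0 and 0.0806 CPM in control and 1.04 and 0.342 CPM in knockout pools (paired edgeR adjusted p = 0.0751). The related factors were level too, with Mybl2 at 36.3 and 32.8 CPM in control and 35.9 and 35.3 CPM in knockout pools and Mybl1 at 152 and 100 against 119 and 101 CPM.

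Immunoglobulin transcripts took 1.59% and 1.81% of counts in control and 3.03% and 2.76% in knockout pools. The isotypes did not move together. Ighg2c, the isotype that T-bet favours, was at 82.8 and 128 CPM in control and 494 and 528 CPM in knockout pools (paired log2 2.31, SE 0.29, edgeR adjusted p = 0.00205; unpaired edgeR adjusted p = 0.0683). Ighg1, the dominant isotype of responses in alum, was at 904 and 954 CPM in control and 501 and 819 CPM in knockout pools and did not pass (paired log2 -0.54, edgeR adjusted p = 0.35). Ighg2b was at 218 and 284 against 370 and 489 CPM (paired edgeR adjusted p = 0.0558) and Ighm at 3555 and 3944 against 6515 and 5403 CPM (paired edgeR adjusted p = 0.177). Of 12 constant region genes, Ighg2c and Igkc rose in the paired fit. Without knockout pool 1 Ighg2c had a log2 change of 2.04 in it and did not pass (edgeR adjusted p = 0.086).

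Of the light chain constant regions, Igkc passed and the lambda genes did not. Igkc was at 1481 and 1923 CPM in control and 3515 and 3947 CPM in knockout pools (paired log2 1.14, SE 0.21, edgeR adjusted p = 0.0159). Iglc1, the lambda 1 constant region, was at 725 and 1202 CPM in control and 457 and 713 CPM in knockout pools (paired log2 -0.71, edgeR adjusted p = 0.0996), and its variable segment Iglv1 at 397 and 663 against 249 and 407 CPM (paired edgeR adjusted p = 0.0644). Lambda 1 chains are the usual partners in the antibody response of this strain to NP. The lambda genes were chosen after their values were seen, and the difference between kappa and lambda was not tested. Igkc had a paired log2 change of 1.04 without knockout pool 1 and did not pass (edgeR adjusted p = 0.582). Of 102 kappa variable segments tested, 91 were positive with 20 higher and 1 lower in the paired fit, and of 117 heavy chain segments 95 were positive with 13 higher and 1 lower. Igkv5-39 showed one of the widest separations, from 49.9 and 65.8 to 646 and 404 CPM (unpaired log2 3.18, edgeR adjusted p = 0.0391). Igkv6-17 stood at 8.94 and 17.3 CPM in control and at 189 and 48.3 CPM in knockout pools, so 1 pool carried most of it. Segments are alike in sequence and a pool may hold a few large clones, so reads may be split between segments and the number of clones was not measured.

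Markers of NK, plasmacytoid dendritic and T cells lay mostly on the higher side in knockout pools. The summed level of 18 T cell markers was 127 and 126 unscaled CPM in control and 177 and 146 in knockout pools, most of it from Cd2, which B cells express as well. Of 17 tested, 13 were positive with a median log2 change of 0.34 and 0 were called, and Cd3e had 0.419 and 0.403 CPM in control and 1.33 and 0.548 CPM in knockout pools. The summed level of 10 NK cell markers was 3.74 and 3.86 against 7.63 and 6.25 unscaled CPM, and the 5 that were tested had a median of 0.97 with 0 called. Myeloid markers followed the date, with 65.6 and 22.4 in control and 87.9 and 21.7 in knockout pools, and plasmacytoid dendritic cell markers had 316 and 288 against 396 and 306. Of 7 of the latter tested, 6 were positive with a median of 0.91, and Bst2, also on the interferon list, rose in the paired fit. Siglech, a defining marker of these cells, was at 0.489 and 0 CPM in control and 0.87 and 0.137 CPM in knockout pools. The medians of the NK and plasmacytoid lists were thus above that of the interferon list. Markers of naive follicular cells summed to 1314 and 1029 in control and 1419 and 729 in knockout pools. Col1a2, Col3a1 and Pdgfra of the 12 stromal and endothelial markers were at 0 in all 4 pools. T and NK cell sums were higher in both knockout pools, as were Tbx21, Il2rb, Lag3 and Cxcr3, which those cells also express, and the part of such cells in these results was not tested.

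The same deletion was profiled in plasmablasts 5 days after a boost, with other pools, and a Moz deletion in day 7 GC B cells. Differences in the change due to the knockout were tested as interaction terms. In the unpaired fit, the change in GC B cells differed from that in plasmablasts for 1 gene, Faxc (0.00762% of genes; 489 at an unadjusted p under 0.05), and in the paired fit for 71 genes (0.541%), with 63 more positive in GC B cells. Faxc was at 48.1 and 35.4 CPM in control and 15.2 and 15.1 CPM in knockout plasmablasts, the opposite direction to GC B cells (difference log2 5.10, SE 0.54, edgeR adjusted p = 0.0145). Of the 70 named genes, which were chosen partly by their change in GC B cells, 23 differed in the paired fit. Cxcr3 was at 25.7 and 29.1 CPM in control and 31.0 and 50.6 CPM in knockout plasmablasts (difference 2.03, edgeR adjusted p = 0.0354). Bhlha15 was at 328 and 330 against 308 and 299 CPM there (difference 1.94, edgeR adjusted p = 0.00216), and Cd9 at 43.0 and 50.1 against 50 and 70.9 CPM (difference 2.02, edgeR adjusted p = 0.00436). For these 3 genes both control plasmablast pools were above both knockout GC pools. The same held for other raised genes, such as Prg2 (286 and 583 CPM in control plasmablasts), Tns3 (357 and 215), Serpina3g (101 and 123) and Adgrl2 (40.4 and 35.4). It did not hold for others, such as Plin2 (7.54 and 9.29) and Igsf3 (0.18 and 0.251). Chst1 was at 304 and 295 CPM in control and 644 and 590 CPM in knockout plasmablasts, and its difference did not pass (1.90, edgeR adjusted p = 0.0623).

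Against loss of Moz, 0 genes differed in the unpaired fit (386 at an unadjusted p under 0.05, 20 by DESeq2) and 31 in the paired fit (0.236%), 24 of them more positive after loss of Myb. Of the 70 named genes, 13 differed in the paired fit, among them Tbx21, Irf1, Chst1, Cd9 and Cadm1. The named genes were chosen partly by their change in the same Myb GC pools, which favours such a difference. Tbx21 was at 5.06 and 2.23 CPM in Moz control and 5.56 and 3.15 CPM in Moz knockout pools (difference 1.92, SE 0.28, edgeR adjusted p = 0.0205). Irf1 was at 41.8 and 25 against 37.2 and 29.5 CPM (difference 1.43, SE 0.18, edgeR adjusted p = 0.00822), and Chst1 at 16.7 and 13.2 against 13.8 and 22.9 CPM (difference 2.66, edgeR adjusted p = 0.0269). Cxcr3 and Prdm1 did not differ beyond the limit (edgeR adjusted p = 0.142 and 0.166). These experiments differ in the day of sampling and in the cre used, which cannot be told apart from the gene deleted.

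**Figure D5:**
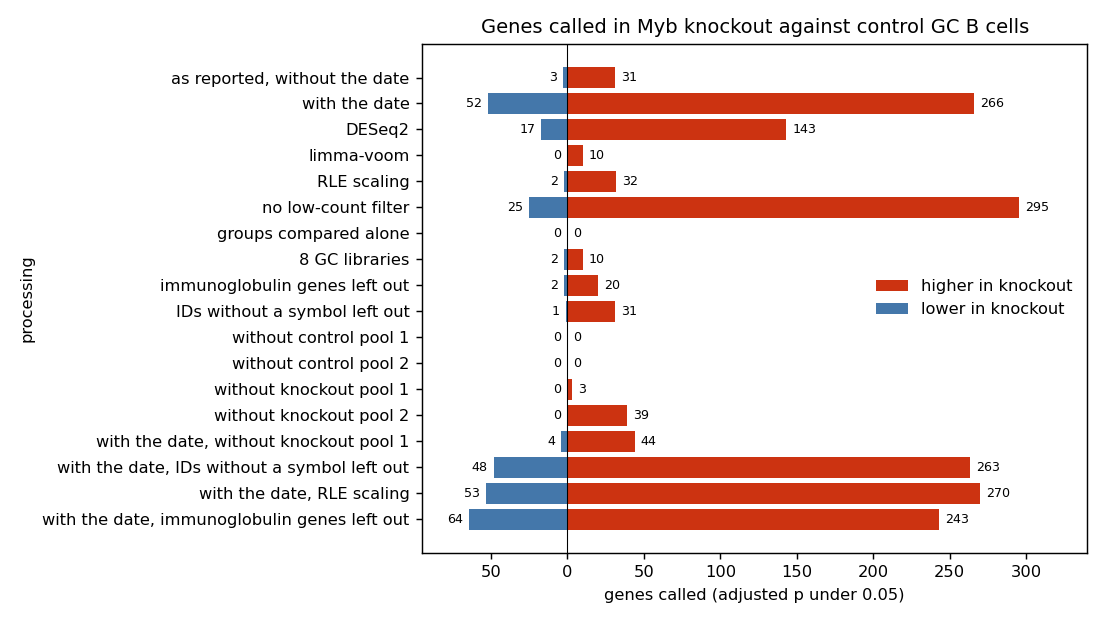
Genes called at an adjusted p under 0.05 (x axis, red bars higher and blue bars lower in knockout) under each processing (y axis), where the date stands for the replicate block. Counts of higher genes range from 0 with the compared groups alone, or without either control pool, to 295 without the low-count filter, counts of lower genes reach 64 with the date and immunoglobulin genes left out, and the bars for higher genes exceed those for lower genes wherever any gene was called.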

How the data were processed

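RNA sequencing libraries of 6 groups of 2 pools of mice were used, with the 4 Myb GC libraries compared. The authors deposited raw counts per Entrez gene ID. The submitters' processing notes name featureCounts and the build mm10. The aligner, strandedness and version (not given in the sources used here) were not known, so reads of overlapping and antisense genes may not be told apart. A column was matched to each of the 12 libraries, 0 columns were left over, and the counts equalled those in each library's own table (0 genes differing). RefSeq tables of GRCm38.p6 gave symbols, coordinates and promoters (25275 IDs with a symbol, 1904 without).

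From the counts, a model with 6 group means was fitted to the 12 libraries together (edgeR 4.0.16, R 4.3.3). filterByExpr (minimum count 10, minimum total 15) kept 13131 IDs, libraries were scaled by TMM, and two-sided quasi-likelihood F tests were adjusted by Benjamini-Hochberg over the 13131 genes, with a limit of 0.05. Interaction terms tested the difference of the knockout effect from that in plasmablasts and from that of Moz. CPM are TMM-scaled unless called unscaled. The code was tested on simulated data.

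Replicate numbers stand for shared experiment dates per the labels, and deviations of same-numbered Myb GC pools from their group means correlated at 0.600 (0.453 in plasmablasts, 0.361 in Moz). The date was therefore also fitted as a block within each experiment. Other settings were DESeq2 1.42.0, limma-voom (limma 3.58.1), RLE scaling, no count filter, fewer libraries or genes, and each Myb GC pool left out.

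Genes named were a fixed set of regulators, every non-immunoglobulin symbol called in the unpaired fit, the 10 steepest increases and decreases of the paired fit with a mean of at least 5 unscaled CPM in the Myb GC pools, and up to 3 called members of each of 35 lists (664 entries). That makes 70 genes, and some are not reported here. Other genes were named after their values were seen. The members, lists and tests were chosen with earlier results of these data known.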

Additional observations from a re-analysis of the deposited data

Results flagged for a closer look

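Faxc was marked because the knockout changed it in opposite directions in the 2 cell types, and the difference itself passed its test. The change in GC B cells minus that in plasmablasts was 5.10 on the log2 scale (SE 0.54, edgeR adjusted p = 0.0145; with the date 5.08, edgeR adjusted p = 0.00136). Faxc had 3 counts in both control GC pools together and 47 in both knockout GC pools, against 536 and 282 counts in control and 117 and 132 in knockout plasmablasts. The difference was not called when any 1 of the 4 Myb GC pools was left out, where 0 genes were called.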

How the results depend on the processing

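The 34 genes called, whose control and knockout pools did not overlap, could hardly change direction. They kept it under every setting that tested them, while the number of genes called moved. It was 318 with the replicate block (the pairing by date), 160 with DESeq2, 320 without the count filter, 22 without immunoglobulin genes, 12 with the 8 GC libraries, 10 with limma-voom and 0 with the compared groups alone (510 at an unadjusted p under 0.05). Leaving out 1 pool gave 0 to 39 (3 when knockout pool 1 and 39 when knockout pool 2 was left out, and 0 without either control pool, where 755 and 552 had an unadjusted p under 0.05). These fits assume that the lone pool varies like the other groups. Of the calls with the block, 31 were shared with the 34. Settings added after the data were seen kept the block and gave 311 without IDs that have no symbol, 323 with RLE scaling, 307 without immunoglobulin genes and 48 without knockout pool 1.

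The difference from plasmablasts was called for 71 genes with the replicate block, 46 with DESeq2, 136 without the count filter, and 0 by limma-voom, from the compared groups by themselves and with any 1 pool left out, against 1 as reported. The difference from Moz was called for 31 with the block, 20 with DESeq2, 105 without the filter and 2 with the compared groups alone, against 0 as reported. The cause was not tested. Of the 70 named genes, 36 passed with the block and not without it, and 1 (Fgl2) passed without it alone.

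Changes of sign were seen in genes with small effects. Myb ranged from -0.20 to 0.10 over the fits that leave out 1 pool (0.10 without control pool 1, 0.02 without knockout pool 2) and had 0.02 with the block without knockout pool 1. Cxcr4 ranged from -0.33 to 0.19 (0.17 without control pool 2, 0.19 without knockout pool 1) and had 0.00 with the block without knockout pool 1. Myc had -0.05 without control pool 2. Bcl2 ranged from -0.91 to 1.22 (-0.07 without control pool 2, -0.91 without knockout pool 1) and had -0.11 with the block without knockout pool 1. With 2 pools a group, changes of genes with a few counts per pool were not fixed in size at this depth.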

Other observations

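Some further genes that rose in the paired fit are given here, chosen after their values were seen. Plac8 was at 23.1 and 13.4 CPM in control and 70.4 and 33.8 CPM in knockout pools (paired log2 1.48, SE 0.13, edgeR adjusted p = 0.000163). Cd36, a scavenger receptor of marginal zone and plasma cells, was at 21.2 and 26.4 against 59.7 and 56.3 CPM (paired log2 1.29, SE 0.16, edgeR adjusted p = 0.00135). Ly6a, the interferon-induced surface antigen Sca-1, was at 69.6 and 110 against 151 and 219 CPM (paired log2 1.06, SE 0.13, edgeR adjusted p = 0.00122). The chemokine gene Cxcl10, a CXCR3 ligand, was at 0.489 and 0.242 against 4.12 and 1.85 CPM (paired log2 3.00, SE 0.43, edgeR adjusted p = 0.00381). For these 4 genes both knockout pools were above both control pools, as was so for 13.8% of all genes tested. Without knockout pool 1, Plac8 passed in the paired fit (edgeR adjusted p = 0.0171), and Cd36, Ly6a and Cxcl10 did not (edgeR adjusted p = 0.086, 0.131 and 0.267).

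Genes that fell in the paired fit, chosen in the same way, included the following. Lcp2, the adaptor SLP-76, was at 51.4 and 52.6 CPM in control and 29.0 and 29.4 CPM in knockout pools (paired log2 -0.83, SE 0.12, edgeR adjusted p = 0.00313). Prkca, a protein kinase C, was at 29.6 and 28.6 against 19.1 and 14.1 CPM (paired log2 -0.82, SE 0.15, edgeR adjusted p = 0.0127). Gsn, the actin-severing protein gelsolin, was at 131 and 161 against 78.0 and 107 CPM (paired log2 -0.66, SE 0.11, edgeR adjusted p = 0.00842). Vpreb3, a chaperone of the antigen receptor, was at 108 and 162 against 62.0 and 110 CPM, with overlapping pools (paired log2 -0.68, edgeR adjusted p = 0.0425). None of these 4 passed in the paired fit without knockout pool 1 (edgeR adjusted p = 0.107 to 0.794).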
